A study of Mus musculus with 6 samples.

Results

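Kruppel-like factors (KLFs) are zinc finger transcription factors that bind GC-rich and CACCC-type elements in gene promoters. Members share the DNA-binding end of the protein and differ in the rest, so that some activate and others recruit repressors. Several of them hold cells out of division, and several are induced within minutes or hours by stress, growth factors, glucocorticoids or the circadian clock. In skeletal muscle the family is known for glucocorticoid-driven control of fuel use (Klf15) and for control of muscle gene promoters (Klf3 and Klf5). The 10 genes described here, Klf2, Klf3, Klf4, Klf5, Klf6, Klf9, Klf10, Klf11, Klf13 and Klf15, were chosen by symbol out of 49652 gene rows, and all 10 passed the filter on low counts that left 18832 genes for testing.

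The libraries are bulk RNA-seq of mouse muscle stem cells (satellite cells), taken from uninjured hindlimb muscle and sorted as cells that carry alpha-7 integrin and VCAM1 and lack Sca1, CD45 and CD31. The KO group (n = 3 libraries) was Cre positive and the WT group (n = 3 libraries) Cre negative, both from the OPA1 by Pax7-CreERT2 cross, so Cre in KO is driven from the muscle stem cell gene Pax7. Mice of both groups were 8 to 10 weeks old, had tamoxifen by gavage on 5 days and gave their cells 3 days later, so the drug was shared and Cre was not. OPA1 joins inner membranes of mitochondria and keeps their folds in shape, and the series asks what its loss does to quiescent muscle stem cells. The labels do not say how many animals each library holds, and p-values measure only the spread between these libraries. Values of 3 libraries are given in the order of replicates 1 to 3.

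Gene counts summed to 41410136 to 56606886 per library. Opa1 had 17.5, 34.4 and 27.1 CPM (read counts scaled to library size, with TMM factors) in KO, against 68.2, 31.4 and 68.8 CPM in WT. The second WT library went against its label, with a value within the range of KO, and is referred to as the library labelled WT replicate 2. The fitted log2 fold change of Opa1 (KO minus WT throughout) was -1.09 (SE 0.37; edgeR adjusted p 0.99998), and reads from exons that Cre leaves in place still count toward the gene. All 10 muscle stem cell markers had counts in every library, and of the genes for the gated-out proteins, Ptprc (CD45) was at 0 to 0.651 CPM, Pecam1 (CD31) at 4.36 to 22.5 CPM and Ly6a (Sca1) at 4.62 to 19.2 CPM.

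Klf9, Klf6 and Klf13 made up most of the KLF transcripts in these cells. Levels are compared between genes per exonic length, as TPM (length-scaled transcript abundance with the same sum in every library), and the 3 genes together held 68.1, 73.1 and 71.2% of the summed TPM of the 10 in KO, against 68.6, 59.8 and 77.4% in WT. Klf9, a target of glucocorticoid and thyroid hormone receptors and of the clock, stood at 226, 452 and 409 TPM in KO and 154, 346 and 351 TPM in WT. Klf6, a broadly expressed factor induced in injured tissue, stood at 190, 421 and 457 TPM in KO and 237, 249 and 354 TPM in WT. Klf13, which can recruit the Sin3a corepressor, stood at 134, 316 and 322 TPM in KO and 70.6, 178 and 360 TPM in WT. By mean level over the 6 libraries, Klf9 ranked 453, Klf6 462 and Klf13 708 among the 18832 genes tested.

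**Figure D1:**
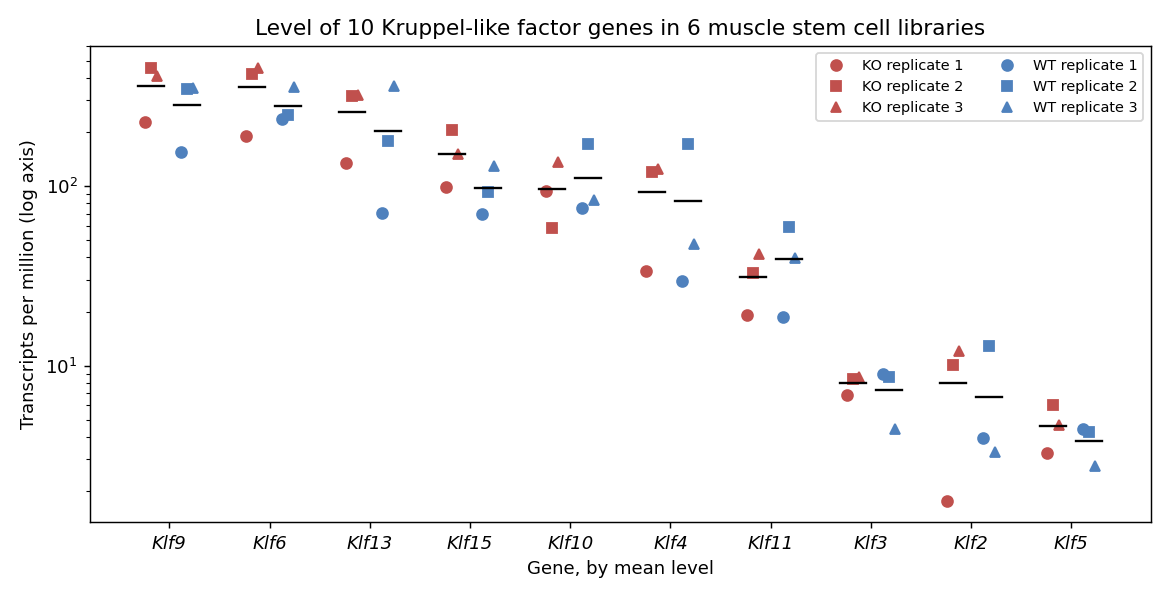
Level of each gene in TPM (log axis) in every library. Red points are KO libraries, blue points WT libraries, the symbol gives the replicate and black bars are group means. Klf9, Klf6 and Klf13 lead at group means of 203 to 362 TPM, Klf3, Klf2 and Klf5 stay at or below 12.9 TPM in each library, and KO and WT points overlap for every gene.

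No single factor led throughout. Klf9 was the most abundant in KO replicates 1 and 2 and in the library labelled WT replicate 2, Klf6 in KO replicate 3 and WT replicate 1, and Klf13 in WT replicate 3. Klf9 held 26.7 ± 1.95% in KO and 25.0 ± 1.99% of the summed TPM in WT (SD, n = 3 each). Klf6 held 25.6 ± 1.91% in KO and 26.7 ± 8.05% in WT. Klf13 held 18.4 ± 1.60% in KO and 16.8 ± 8.28% in WT, from 10.5% in WT replicate 1 up to 26.2% in WT replicate 3.

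**Figure D2:**
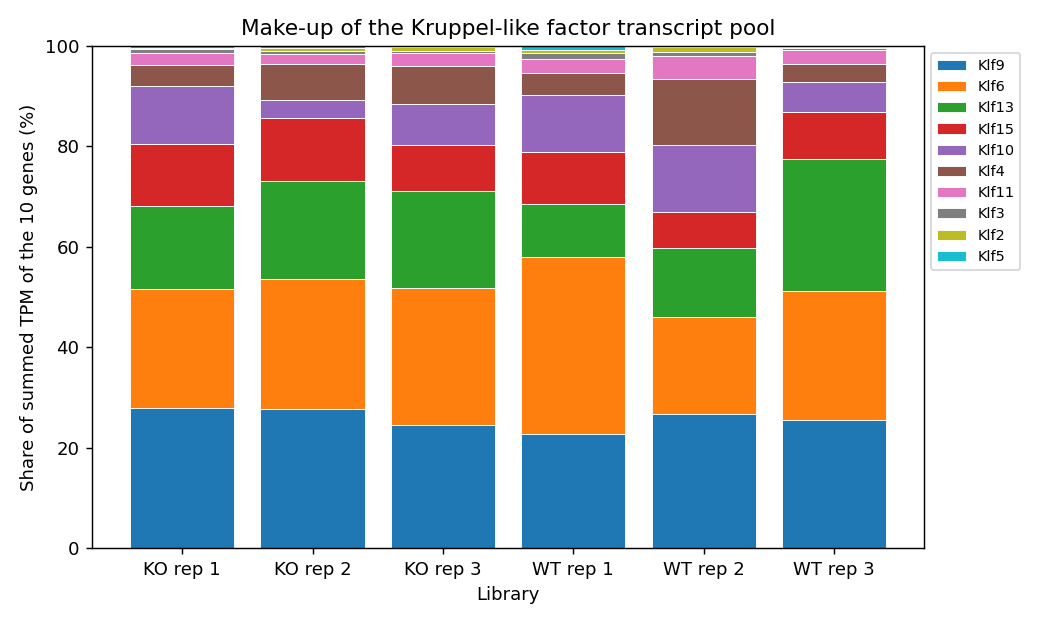
Share of the summed TPM of the 10 genes held by each gene (stacked bars, percent), with KO libraries on the left and WT libraries on the right. The lowest 3 blocks (Klf9, Klf6, Klf13) reach between 59.8% in the library labelled WT replicate 2 and 77.4% in WT replicate 3.

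A middle tier followed by mean level. The tiers did not hold in WT replicate 1, where Klf10 (75.9 TPM) stood above Klf13 (70.6 TPM). Klf15, a glucocorticoid-induced regulator of amino acid and lipid use in muscle, had 98.3, 204 and 151 TPM in KO and 70.2, 92.6 and 129 TPM in WT. Klf10, first described as a TGF-beta-inducible early gene, had 94.4, 58.4 and 137 TPM in KO and 75.9, 172 and 83.7 TPM in WT. Klf4, known as a reprogramming factor, had 33.6, 119 and 125 TPM in KO and 29.5, 171 and 47.4 TPM in WT, and stood above Klf10 in KO replicate 2 alone. Klf11, the closest relative of Klf10, was the lowest of this tier in every library, at 18.6 to 59.3 TPM.

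Klf3, Klf2 and Klf5 formed the low end. Klf3, a repressor that works through the corepressor CtBP, ranged from 4.44 to 8.95 TPM and Klf5, a factor of growing epithelia and smooth muscle, averaged 4.63 ± 1.38 TPM in KO and 3.80 ± 0.918 TPM in WT (SD, n = 3 each). Klf2, a factor of quiescent T cells and of endothelium under flow, had 1.77, 10.1 and 12.1 TPM in KO and 3.96, 12.9 and 3.31 TPM in WT. Its raw counts were only 55 to 425 per library. Part of the Klf3 exons (3.59%) overlaps the antisense gene Gm20033, so some of its reads may have been left uncounted or belong to that gene.

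Neighbours in the order Klf9, Klf6, Klf13, Klf15, Klf10, Klf4, Klf11, Klf3, Klf2, Klf5 were compared within libraries by an exact sign-flip permutation test on log2 TPM ratios (two-sided, n = 6 libraries, smallest p 0.0312). Klf13 stood above Klf15, Klf4 above Klf11 and Klf11 above Klf3 in 6 of 6 libraries, with mean log2 ratios of 0.77 ± 0.52, 1.12 ± 0.63 and 2.12 ± 0.79 (SD, n = 6; exact p = 0.0312 each, 0.0938 adjusted over the 9 pairs). None of the 9 pairs passed 0.05 after adjustment, which pairs at the smallest p could do only if most of the 9 reached it. The order came from the mean TPM of these same libraries, so the p-values are descriptive only. Klf9 and Klf6 could not be ordered, with a mean log2 ratio of 0.00 ± 0.38 and Klf9 higher in 3 of 6 libraries. Klf6 was above Klf13 in 5 of 6 libraries (0.60 ± 0.60, exact p = 0.0625). In WT replicate 1 Klf13 and Klf15 were nearly level, at 70.6 and 70.2 TPM. The orders of Klf15 and Klf10, of Klf10 and Klf4, of Klf3 and Klf2 and of Klf2 and Klf5 each changed between libraries. All these orders use the exon union as length. For Klf3 it is 11243 bases, against 5221 in its longest transcript, while Klf2 has 1847 for both. Klf5 has 5201 and 3352 bases, and Klf10 has 4179 and 3044, beside 2791 and 2482 for Klf15. Scaled by the longest transcript, Klf3 and Klf5 would stand higher beside Klf2, and Klf10 higher beside Klf15. The neighbours were not compared that way.

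Klf9 and Klf6 lead by mean level, and Klf15, Klf4 and Klf2 are set beside glucocorticoid or early response genes in later results. The promoter bases of these 5 factors are shown. Each is the 250 bases before the RefSeq start on GRCm38.p6, read on the gene's strand. The windows are chr19:23140976-23141225 (plus) for Klf9, chr13:5861239-5861488 (plus) for Klf6, chr6:90462326-90462575 (plus) for Klf15, chr4:55532476-55532725 (minus) for Klf4 and chr8:72318812-72319061 (plus) for Klf2. Capitals mark the E-box CACGTG bound by clock factors, the CCAAT box, the cAMP response half-site TGACG and the MEF2 box, on either strand.
Klf9: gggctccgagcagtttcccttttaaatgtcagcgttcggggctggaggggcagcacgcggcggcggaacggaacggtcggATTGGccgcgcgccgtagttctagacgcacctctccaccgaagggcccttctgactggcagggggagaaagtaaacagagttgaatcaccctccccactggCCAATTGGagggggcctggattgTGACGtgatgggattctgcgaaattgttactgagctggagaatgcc
Klf6: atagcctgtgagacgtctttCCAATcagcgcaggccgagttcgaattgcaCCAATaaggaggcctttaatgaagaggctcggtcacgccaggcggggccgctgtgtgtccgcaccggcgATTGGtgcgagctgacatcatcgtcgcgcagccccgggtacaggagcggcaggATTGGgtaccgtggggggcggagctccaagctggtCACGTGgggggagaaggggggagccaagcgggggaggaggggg
Klf15: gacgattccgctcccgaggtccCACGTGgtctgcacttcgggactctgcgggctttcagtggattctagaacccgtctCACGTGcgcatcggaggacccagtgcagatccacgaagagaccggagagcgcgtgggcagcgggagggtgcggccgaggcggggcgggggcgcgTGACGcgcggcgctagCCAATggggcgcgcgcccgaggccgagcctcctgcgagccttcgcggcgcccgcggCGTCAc
Klf4: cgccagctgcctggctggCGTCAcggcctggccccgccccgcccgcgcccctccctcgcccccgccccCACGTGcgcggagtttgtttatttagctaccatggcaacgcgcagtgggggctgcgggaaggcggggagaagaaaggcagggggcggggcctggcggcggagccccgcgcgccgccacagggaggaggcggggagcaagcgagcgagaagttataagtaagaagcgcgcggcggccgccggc
Klf2: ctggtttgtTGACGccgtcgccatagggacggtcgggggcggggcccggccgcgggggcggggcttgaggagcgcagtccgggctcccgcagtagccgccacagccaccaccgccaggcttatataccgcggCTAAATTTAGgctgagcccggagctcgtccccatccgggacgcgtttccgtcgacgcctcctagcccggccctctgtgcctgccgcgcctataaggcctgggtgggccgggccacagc
In Klf9, a CCAAT match and its reverse ATTGG share bases.

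RefSeq promoters were at hand for 8 of the 10 genes, without Klf5 and Klf10. The E-box was in 4 of the 8 (Klf4, Klf6, Klf11 and Klf15), against 6.02% of all 32851 promoter windows of that length. Klf15 held 2 of them, as 0.429% of all windows did. The CCAAT box was in 5 of 8 (33.8% of all windows), with 4 matches in Klf6, a number reached by 0.840% of all windows. TGACG was in 5 of 8 (17.8%), the GC box GGGCGG in 7 of 8 (32.7%) and the MEF2 box in Klf2 alone (2.92%). The CArG box of serum response factor and the full glucocorticoid element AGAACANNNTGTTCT were in 0 of 8 windows, against 1.47% and 0.00913% of all. The 8 windows are rich in G and C (59.6 to 78.4%) and a match is not a site in use.

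None of the 10 factors was called between KO and WT by edgeR's quasi-likelihood test, in which 0 of 18832 genes (0%) had an adjusted p under 0.05. An unadjusted p under 0.05 was reached by 0 of the 10 and by 2.09% of all genes. DESeq2 called 0.106% of the genes it tested and 0 of the 10. The log2 fold change was positive for 8 of the 10 (51.0% of all genes), with a median of 0.25 beside 0.006 over all genes tested. No factor had groups that did not overlap, which 6.55% of all genes had. The count of positive factors fell to 5 without WT replicate 1 or without WT replicate 3, and was 10 without the library labelled WT replicate 2.

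**Figure D3:**
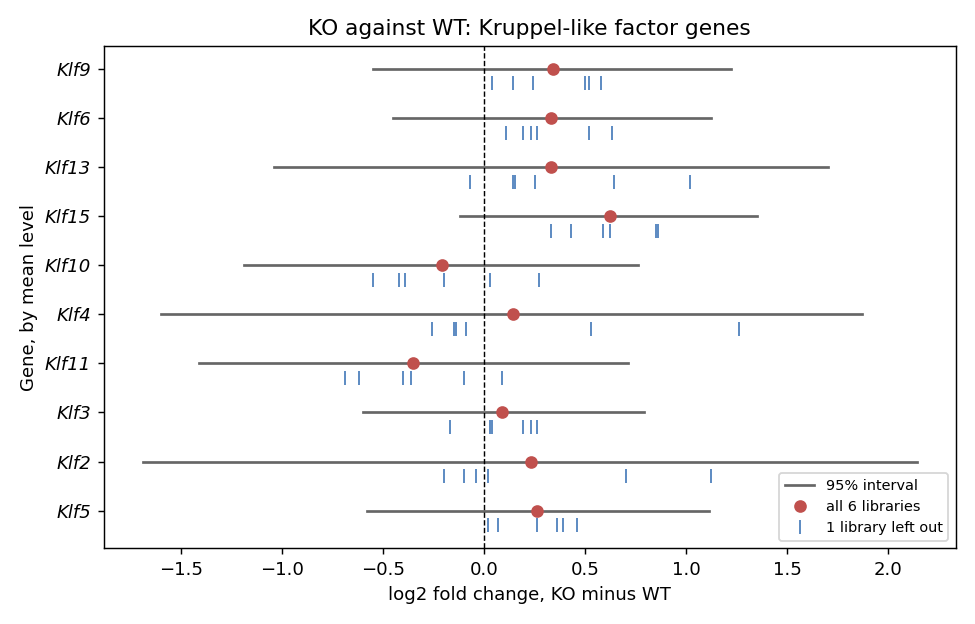
Log2 fold change, KO minus WT, of the 10 genes. Red points are the values with all 6 libraries, grey lines their 95% intervals and blue ticks the values with 1 library left out. All intervals cross 0. Klf15 at 0.62 is the farthest from 0, and the ticks of Klf4 run from -0.26 to 1.26.

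Klf15 had the largest difference of the 10. Its normalised read count was 92.6, 190 and 141 CPM in KO, against 66.7, 88.6 and 121 CPM in WT. KO replicate 2 was the highest library and WT replicate 1 the lowest, and KO replicate 1 lay inside the WT range. This gave a log2 fold change of 0.62 (SE 0.31, 95% interval -0.12 to 1.35, edgeR adjusted p 0.99998), from 0.33 without KO replicate 2 to 0.86 without WT replicate 3. An exact permutation test of its log2 CPM (two-sided) gave p = 0.200, and the smallest p that 3 against 3 libraries allow is 0.1.

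Klf9, Klf6 and Klf13 had similar fitted differences, none larger than about its standard error. Klf9 averaged 584 ± 191 CPM in KO and 462 ± 182 CPM in WT (SD, n = 3 each; log2 fold change 0.34, SE 0.37, 95% interval -0.55 to 1.22). Klf6 averaged 523 ± 210 CPM in KO and 416 ± 89.3 CPM in WT (0.33, SE 0.33, -0.45 to 1.12, and from 0.11 without KO replicate 3 to 0.63 without KO replicate 1). Klf13 averaged 648 ± 267 CPM in KO and 516 ± 366 CPM in WT (0.33, SE 0.58, -1.04 to 1.70). Without WT replicate 1 the value of Klf13 turned to -0.07 and that of Klf9 dropped to 0.04, and without WT replicate 3 Klf13 moved to 1.02. These intervals leave room for changes of 2-fold or more in either direction for Klf13 and in the upward direction for Klf9 and Klf6.

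The TGF-beta-inducible pair had negative values. Klf10 had 133, 81.6 and 192 CPM in KO, against 108, 247 and 117 CPM in WT (log2 fold change -0.21, SE 0.41). The lowest of the 6 libraries was KO replicate 2 and the highest the library labelled WT replicate 2. Klf11 had 27.9, 47.3 and 60.3 CPM in KO, against 27.5, 88.2 and 57.4 CPM in WT (-0.35, SE 0.45), and was again highest in the library labelled WT replicate 2. Without that library the values turned to 0.27 and 0.09, and without KO replicate 2 that of Klf10 turned to 0.03.

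Klf4 and Klf2 were the most variable. Klf4 had 34.6, 121 and 128 CPM in KO, against 30.6, 179 and 48.2 CPM in WT. Klf2 had 1.10, 6.24 and 7.49 CPM in KO, against 2.49, 8.14 and 2.04 CPM in WT. For both genes, KO replicates 2 and 3 and the library labelled WT replicate 2 were high and the other 3 libraries low. The log2 fold changes were 0.14 for Klf4 (SE 0.73) and 0.23 for Klf2 (SE 0.81), and moved to 1.26 and 1.12 without the library labelled WT replicate 2. Both turned negative without KO replicate 3, WT replicate 1 or WT replicate 3, Klf4 also without KO replicate 2 (down to -0.26 and -0.20).

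Klf3 and Klf5 varied least over the 6 libraries. Klf3 had 26.0, 31.5 and 32.3 CPM in KO and 34.3, 33.2 and 16.7 CPM in WT (log2 fold change 0.09, SE 0.29, 95% interval -0.60 to 0.79, and -0.17 without WT replicate 3). Klf5 had 5.68, 10.4 and 8.08 CPM in KO and 7.83, 7.56 and 4.77 CPM in WT (0.26, SE 0.36, and 0.02 without KO replicate 2). WT replicate 3 was the lowest library for both.

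The factors varied widely among the libraries. The SD of log2 CPM over the 6 libraries was 1.17 for Klf2, 1.09 for Klf4 and 0.91 for Klf13, and 0.40 for Klf3 and Klf5. Among the 10049 genes whose mean log2 CPM was 3 or more, the median SD was 0.27, and 98.1% of them varied less than Klf4, 97.0% less than Klf13 and 75.8% less than Klf3. Within a genotype, the SD of log2 CPM was 1.07 in KO and 1.32 in WT for Klf4, and 0.71 in KO and 1.17 in WT for Klf13 (n = 3 each), beside medians over the same genes of 0.24 in KO and 0.26 in WT. KO replicate 1 and WT replicate 1 had the smallest KLF pools. The summed TPM of the 10 genes was 807, 1626 and 1668 in KO and 673, 1294 and 1376 in WT. A smaller sum in bulk RNA may mean fewer cells with a transcript or less of it per cell, which cannot be told apart here.

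**Figure D4:**
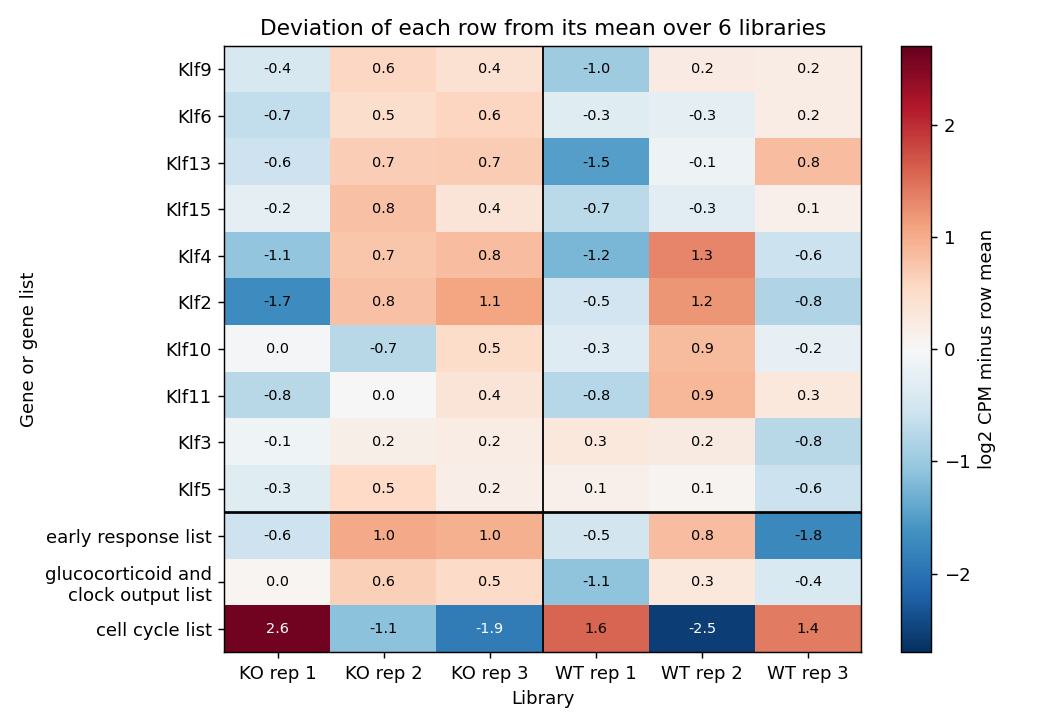
Log2 CPM of each gene (top 10 rows) or mean log2 CPM of each gene list (bottom 3 rows), as the deviation from its own mean over the 6 libraries, with KO libraries left of the black line and WT libraries right of it. Red is above and blue below the mean. Klf4 and Klf2 are high in KO replicates 2 and 3 and the library labelled WT replicate 2, and Klf9, Klf13 and Klf15 are lowest in WT replicate 1.

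Klf13 ordered the libraries as Tsc22d3 and Fkbp5 did, 2 of the 15 genes listed as glucocorticoid and clock outputs. From high to low the order was WT replicate 3, KO replicates 3 and 2, the library labelled WT replicate 2, KO replicate 1 and WT replicate 1. Tsc22d3, which encodes the glucocorticoid-induced leucine zipper protein GILZ, was at 1529, 2113 and 2875 CPM in KO and 330, 1702 and 5408 CPM in WT. Fkbp5, a chaperone of the glucocorticoid receptor that the receptor itself induces, was at 49.9, 148 and 224 CPM in KO and 30.8, 125 and 230 CPM in WT. Foxo3, a transcription factor of stem cell quiescence, gave this order as well. Of the 15 listed genes, 4 were highest in KO replicate 2, 4 in the library labelled WT replicate 2 and 2 in WT replicate 3, while 9 were lowest in WT replicate 1 and 6 in WT replicate 3. Log2 fold changes were positive for 13 of the 15 (median 0.49), 0 were called and 4 had groups apart, against 6.55% of all genes. Those 4 were the clock genes Per2, Per3, Tef and Ciart, at 1.09, 1.24, 1.17 and 2.04. On the glucocorticoid side of the list, Tsc22d3, Fkbp5 and Sgk1 were at -0.19, 0.13 and -0.12. Mt1, Mt2 and Zbtb16 were at 0.09, 0.07 and 0.40. The rest of the list, Per1, Dbp, Hlf, Nr1d1 and Nr1d2, was at 0.54, 1.23, 0.49, 0.48 and 0.58. The companions of Klf13 were picked with their values in view, and 65 of the other 18831 genes tested (0.345%) shared the order. Klf9 and Klf15, targets of the same receptor, were likewise lowest in WT replicate 1 but highest in KO replicate 2. Nr3c1, which encodes the receptor, was at 173, 200 and 189 CPM in KO and 156, 244 and 122 CPM in WT, lowest where Klf13 was highest.

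Klf4 ordered the libraries as Sgk1, a kinase gene induced by glucocorticoids and serum, and Egr3 did, with the library labelled WT replicate 2 first and WT replicate 1 last. This order was shared by 70 of the other 18831 genes (0.372%), and Egr3 was the 1 gene of 18 on the early response list that had it. Sgk1 had 195, 374 and 456 CPM in KO and 182, 647 and 287 CPM in WT. Early response genes (18 of 18 tested), which cell isolation can also induce, had a mean log2 CPM of 6.89, 8.48 and 8.40 in KO and 6.95, 8.28 and 5.70 in WT. Their 3 high libraries were thus the 3 in which Klf4 and Klf2 were high. WT replicate 3 was the lowest library for the list but not for Klf4 or Klf2. Within the list 16 of 18 log2 fold changes were positive (median 0.70) and 0 were called. The part of this response in the KLF values was not tested.

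**Figure D5:**
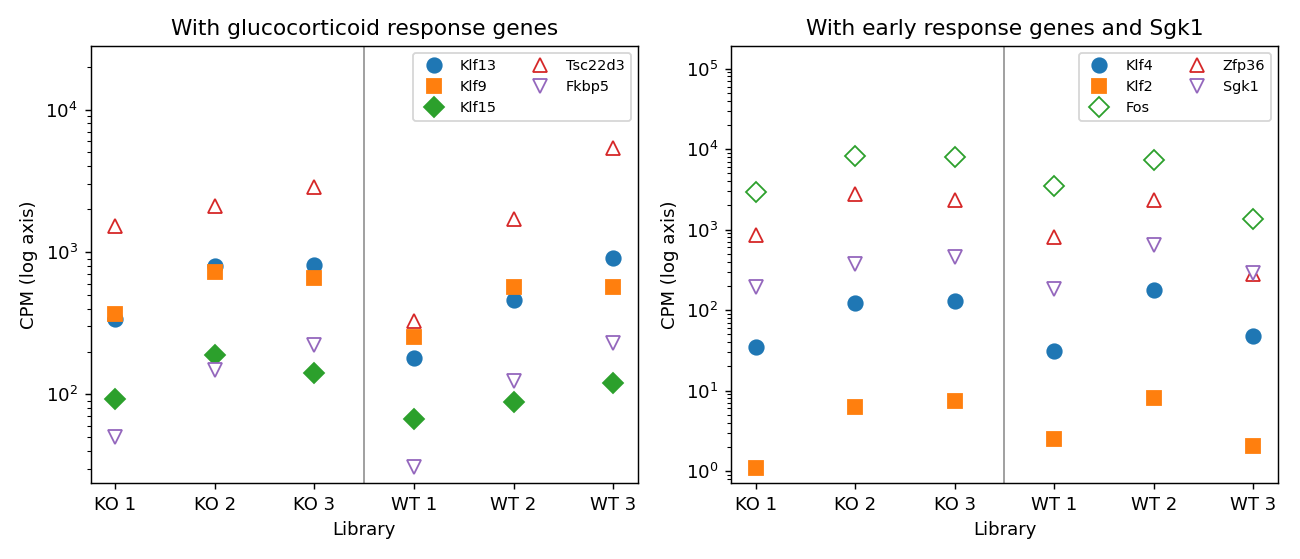
CPM (log axis) by library for KLF genes (filled symbols) and companion genes picked with their values in view (open symbols), KO left of the grey line and WT right of it. On the left, Klf13 has the same order of libraries as Tsc22d3 and Fkbp5, from 181 CPM in WT replicate 1 to 906 CPM in WT replicate 3. On the right, Klf4 and Klf2 are high where Fos is high, except that Fos is lowest in WT replicate 3.

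Markers of other cells that use Klf2 and Klf4 varied between libraries too. The 10 endothelial markers had counts in every library and summed to 108, 135 and 183 CPM in KO and 184, 195 and 109 CPM in WT, of which Tek alone gave 77.8 to 109 CPM. Their mean log2 CPM was 1.92, 2.71 and 3.36 in KO and 3.18, 3.53 and 0.34 in WT. Endothelial markers were thus high in WT replicate 1, where Klf2 was at 2.49 CPM, and also in KO replicate 3 and the library labelled WT replicate 2, where Klf2 was high. Leukocyte markers (3 of 8 tested) summed to 6.10, 15.7 and 16.8 CPM in KO and 6.28, 15.7 and 6.77 CPM in WT. This sum was high in the same 3 libraries as Klf2. The mean log2 CPM of the 3 tested was -0.61, 1.73 and 1.66 in KO and -0.49, 0.40 and 0.63 in WT. By that measure the library labelled WT replicate 2 was below WT replicate 3. Ptprc, Adgre1, Csf1r and Cd3e were each at 0 in at least 1 library, and Lyz2 and Cd68 made up most of the sum. Smooth muscle and pericyte markers summed to 1020, 758 and 732 CPM in KO and 1289, 789 and 752 CPM in WT, a sum led by Acta2 at 429 ± 270 CPM in KO and 599 ± 344 CPM in WT (SD, n = 3 each), highest in KO replicate 1 and WT replicate 1. Their mean log2 CPM, which Acta2 does not dominate, was 4.35, 5.30 and 5.05 in KO and 4.96, 5.39 and 4.42 in WT. It was highest in the 3 libraries in which Klf4 was high. The pericyte marker Rgs5 was also high there, at 39.4, 110 and 142 CPM in KO and 56.1, 144 and 65.6 CPM in WT. Kcnj8, Abcc9 and Myh11 were high there too. Pdgfrb, Cspg4 and Notch3, of the same list, did not set these 3 libraries apart. Pdgfrb had 3.51, 5.62 and 2.59 CPM in KO and 4.01, 2.40 and 3.89 CPM in WT. Cspg4 had 3.21, 9.62 and 3.45 CPM in KO and 5.16, 7.01 and 4.04 CPM in WT. Mature fibre markers had a mean log2 CPM of 3.57, 4.04 and 4.65 in KO and 4.14, 5.01 and 3.59 in WT. They were highest in the library labelled WT replicate 2, then in KO replicate 3. Fibro-adipogenic markers were at 3.99, 3.26 and 4.25 in KO and 4.12, 3.33 and 4.62 in WT. The part of any of these cells in the Klf2 and Klf4 values was not tested.

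Cell cycle genes ran partly against the family. Their summed level was 693, 107 and 88.0 CPM in KO and 327, 87.2 and 286 CPM in WT. The libraries with the smallest KLF pools, KO replicate 1 and WT replicate 1, had the highest cell cycle sums, whereas WT replicate 3 combined a high cell cycle sum with the highest Klf13. Whether this goes with the KLF levels beyond these libraries was not tested.

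The rest of the family held no called gene. Of 16 other KLF and SP genes, 9 passed the filter on low counts, 8 of them with positive and 1 with a negative log2 fold change (median 0.16), and 0 were called. Klf17 and Sp5 had no count in any library. Sp3 and Sp1, broadly expressed relatives that bind the same GC boxes, were at 114 ± 14.2 and 95.9 ± 6.01 CPM in KO and 102 ± 10.2 and 85.3 ± 9.43 CPM in WT (SD, n = 3 each; log2 fold changes 0.16, SE 0.15, and 0.17, SE 0.14). Klf7, the most abundant KLF outside the 10 by CPM, was at 128 ± 33.1 CPM in KO and 121 ± 14.4 CPM in WT (0.08, SE 0.21).

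Regulators of KLF genes were not called either (16 tested, 10 positive, 6 negative, median 0.12). Creb1, the cAMP response factor, had 139, 128 and 137 CPM in KO, against 126, 111 and 106 CPM in WT, groups that did not overlap (log2 fold change 0.23, SE 0.12, edgeR adjusted p 0.99998). Arntl, the clock activator that binds E-boxes, also had groups apart, at 1.69, 15.3 and 15.2 CPM in KO and 43.8, 20.9 and 66.8 CPM in WT (-2.03, SE 0.80). Such groups were found for 3 of the 16, against 6.55% of all genes. The third was Srf, which encodes serum response factor (0.42, SE 0.31). It had 8.75, 9.11 and 7.91 CPM in KO and 7.25, 7.52 and 4.56 CPM in WT. Trp53, the most abundant of this list, had 0.14 (SE 0.20).

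Cofactors and turnover enzymes of KLF proteins were split evenly (16 tested, 8 positive, 8 negative, 0 called). Smurf1, a ubiquitin ligase that also degrades SMAD proteins, was at 22.5 ± 2.41 CPM in KO and 15.2 ± 2.43 CPM in WT (SD, n = 3 each; log2 fold change 0.57, SE 0.21, edgeR adjusted p 0.99998). It was the 1 gene of the 16 with groups apart, against 6.55% of all genes. Sin3a, the corepressor used by Klf9, Klf10, Klf11 and Klf13, was at 63.5 ± 7.65 CPM in KO and 48.5 ± 9.12 CPM in WT (0.39, SE 0.19). Crebbp, a coactivator, and Hdac3 were the most abundant and had 0.07 (SE 0.21) and 0.01 (SE 0.14).

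Genes reported as KLF targets were counted from a list of 18, of which 16 were tested, 12 with positive and 4 with negative values (median 0.17) and 0 called. Smad7, the inhibitory SMAD that Klf10 represses, had 13.7, 20.1 and 19.6 CPM in KO, against 10.2, 11.5 and 8.32 CPM in WT. Each KO library was above each WT library (log2 fold change 0.83, SE 0.26, edgeR adjusted p 0.99998), but the gene did not pass over all genes. Per2, a clock repressor, had 61.1, 80.9 and 42.9 CPM in KO and 11.4, 33.5 and 41.9 CPM in WT (1.09, SE 0.47), also with groups apart. Groups were apart for 2 of the 16 tested, against 6.55% of all genes. Txnip, an inhibitor of glucose uptake, had -0.71 (SE 0.63, from -1.43 without KO replicate 3 to -0.35 without KO replicate 1), and Ccnd1, which encodes the cyclin that opens the cell cycle, 0.16 (SE 1.01, and -1.43 without KO replicate 1).

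Genes most like the leading factors were sought among the 10048 other genes whose mean log2 CPM was 3 or more, by Pearson correlation of log2 CPM over the 6 libraries. All points share these libraries and their scaling, so the values describe likeness only, and no p is given. Closest to Klf9 were Gatad2b (r = 0.993), Zfp862-ps (0.992), Inpp4a (0.989), Kcmf1 (0.989) and Dffb (0.988). Closest to Klf6 were Osr2 (0.997), the aryl hydrocarbon receptor gene Ahr (0.991), Zfp667 (0.989), Glis3 (0.987) and Sqstm1, which encodes the autophagy receptor p62 (0.985). Closest to Klf13 were Prdm10 (0.997), Trp53inp1 (0.986), the histone methyltransferase gene Setd2 (0.986), Smarcd2 (0.985) and Flcn, which encodes folliculin (0.985). Osr2, for instance, stood at 4.08, 17.1 and 20.8 CPM in KO and 7.00, 7.04 and 13.4 CPM in WT, and ordered the libraries as Klf6 did.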

How the data were processed

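The deposited files hold raw counts of reads for each gene, with a file for each of the 6 libraries. The submitters' processing notes name HTSeq 0.6.1p2, STAR 2.6.0c, cutadapt 2.5, Trim Galore 0.5.0, DESeq2 and edgeR, with the build GRCm38. Annotation release and counting strand: not given in the sources used here. Each file held 49652 gene rows and 5 summary rows, and the summary rows stayed out of totals and tests. Reads without a feature were 11.153 to 17.02% of all reads, ambiguous reads 1.212 to 1.419% and multiply aligned reads 14.824 to 24.565%. The smallest count of a member in a library was 55 (Klf2 in KO replicate 1).

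Symbols, positions and exon lengths came from GENCODE M21 (GRCm38), which matched 49399 rows. Promoters came from RefSeq (GRCm38.p6). KO was compared with WT by edgeR 4.0.16 (R 4.3.3; quasi-likelihood, robust, TMM, filterByExpr, no covariate, Benjamini-Hochberg over 18832 genes, called at an adjusted p under 0.05). Log2 fold changes use a prior count of 0.125 and log2 CPM a prior count of 2. The SE is the absolute log2 fold change over the square root of F. TPM uses the exon union. DESeq2 1.42.0 and limma 3.58.1 (voom), other size factors, no filter, a replicate block and leaving out each library were alternatives. The fit was also run on simulated counts, which were set to vary less than these libraries (fitted biological coefficient of variation 0.524). That run therefore says nothing of the power to call genes here. Figures and summaries used Python 3.11.15, pandas 2.3.3, scipy 1.17.1 and matplotlib 3.10.9.

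The members and gene lists were chosen with earlier results of these data known. The rule for named genes takes Opa1, the 10 members, the 2 most abundant and the 2 lowest-p genes of each list, and 5 genes most like each of the 3 leading members. Among the lists it was followed in full for the other KLF and SP genes, regulators, partners and reported targets. The other lists are given mainly as summaries, so not all their lowest-p genes are shown. The comparison of neighbouring levels, the motifs, and Fkbp5, Foxo3, Sgk1, Per3, Tef, Ciart, Mt1, Mt2, Zbtb16, Egr3, Lyz2, Cd68, Adgre1, Csf1r, Cd3e, Pecam1, Ly6a, Acta2, Rgs5, Kcnj8, Abcc9, Myh11, Pdgfrb, Cspg4, Notch3, Klf17 and Sp5 were chosen after values were seen. So were Per1, Dbp, Hlf, Nr1d1, Nr1d2 and Srf.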

Additional observations from a re-analysis of the deposited data

How the results depend on the processing

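The count of genes called in KO against WT was 0 under each edgeR alternative, with each library left out (0 to 0) and by limma voom, and 20 by DESeq2, and the cause was not tested. At an unadjusted p under 0.05 there were 393 genes by edgeR, 515 with the replicate block, 864 without the filter, 518 by DESeq2, 457 by limma voom and 324 to 818 with a library left out. The count of KLF members called was 0 throughout, and the number with a positive log2 fold change ran from 5 to 10 with a library left out. Under the 5 alternatives that keep all libraries, the 50 member values kept their sign. With a library left out 12 of 60 turned, in 6 members, and the ranges were -0.2 to 1.12 for Klf2, -0.17 to 0.26 for Klf3, -0.26 to 1.26 for Klf4, -0.55 to 0.27 for Klf10, -0.69 to 0.09 for Klf11 and -0.07 to 1.02 for Klf13. Among other named genes the ranges that crossed 0 were -0.15 to 0.23 for Klf7, -0.09 to 0.43 for Nr3c1, -0.08 to 0.08 for Hdac3, -0.07 to 0.23 for Crebbp and -1.43 to 1.54 for Ccnd1. Ranges that kept their sign but reached over 1.5 times from the value with all libraries were 0.02 to 0.46 for Klf5, 0.11 to 0.63 for Klf6, 0.04 to 0.58 for Klf9, 0.33 to 0.86 for Klf15, -1.43 to -0.35 for Txnip, 0.71 to 1.46 for Per2, 0.02 to 0.34 for Trp53, 0.11 to 0.26 for Sp1, 0.06 to 0.25 for Sp3 and 0.25 to 0.52 for Sin3a. Without the filter Hdac3 was at -0.01. Same-numbered KO and WT libraries did not deviate together in each pair (correlations 0.245, 0.105 and -0.072 across genes), and not every library correlated best with its own number, so the replicate numbers were not taken as pairs. With the replicate block 0 genes were called. The share held by Klf9 stayed within 1 SD of its main value of 25.9%. It was 24.8% with lengths from the longest transcript, 25.9% with no length scaling and 25.5 to 26.5% with a library left out. In the main setting Klf6 had a slightly higher mean share (26.2%), and Klf13 led in counts with no length scaling. Klf9 had the highest mean share with the longest transcript, without KO replicate 3 and without WT replicate 1.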
